A study of Mus musculus with 6 samples.

Results

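The Smad family comprises the intracellular proteins that carry signals from the receptors of bone morphogenetic proteins (BMPs), TGF-beta and activins to the nucleus. Its 8 mouse genes, *Smad1*, *Smad2*, *Smad3*, *Smad4*, *Smad5*, *Smad6*, *Smad7* and *Smad9*, were selected by symbol out of 53657 counted gene names, and all 8 were detected in every library. The libraries were poly(A) RNA-seq of tdTomato+ MCAM-bright undifferentiated spermatogonia sorted from adult mouse testes, with 3 wild-type (WT) and 3 mutant (MUT) samples. All mice carried *Gfra1-creERT2*, an inducible Cre driven by the *Gfra1* promoter in undifferentiated spermatogonia, together with a Cre-activated tdTomato reporter, and all had received tamoxifen in 2 courses, with isolation 3 months afterwards. MUT mice additionally carried 1 FR-Hras G12V allele, in which Cre replaces a wild-type copy of *Hras* with the G12V form under its own promoter, so that the samples are heterozygous for Hras G12V. WT mice were littermates without that allele. The background was a mix of C57BL/6J, 129/Sv and Swiss Black, and Cre converts a population of cells rather than every cell, so the sorted MUT cells can include unconverted ones. From reads at the mutated base, the paper reports that most of the isolated MUT cells carried the mutation. The comparison asks whether the Hras G12V allele goes with a different level of any Smad transcript in these cells.

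Smad proteins fall into 3 functional classes. Receptor-regulated Smads are phosphorylated by the type I receptor, with Smad1, Smad5 and Smad9 serving mainly BMP receptors and Smad2 and Smad3 serving TGF-beta and activin receptors. They then join Smad4, the common partner, and enter the nucleus to regulate transcription, while Smad6 and Smad7, the inhibitory Smads, block the receptors and their substrates and are themselves induced by the pathway. In the testis, BMPs, activins and TGF-betas made by somatic and germ cells act on spermatogonia, and BMP4 and activin are best known there for effects on their differentiation.

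Total counts ranged from 22729292 to 23550433 per library, so that 3 counts corresponded to 0.127 to 0.131 CPM (the count scaled to library size). All 15 listed markers of undifferentiated spermatogonia were detected, with a summed level of 2722 to 3203 TPM (counts divided by exon length and scaled to the same total in each library) in WT and 2863 to 3114 TPM in MUT. The largest parts of this sum were *Dazl* and *Ddx4*, at means of 1140 and 626 TPM, followed by *Zbtb16* at 289 TPM. *Dazl* and *Ddx4* are not restricted to undifferentiated spermatogonia, so the sum also reflects other germ cells. The libraries also held RNA of other cells. The 8 markers of spermatocytes and spermatids summed to 4336 to 7005 TPM in WT and 2996 to 5612 TPM in MUT, and the 6 macrophage markers to 790 to 1217 TPM in WT and 677 to 878 TPM in MUT. Differentiating spermatogonia (5 markers) gave 1120 to 1180 TPM in WT and 1239 to 1442 TPM in MUT. The remaining lists, all detected, were lower, with Sertoli cells (7 markers) at 66.4 to 148 TPM in WT and 93.4 to 130.2 TPM in MUT, and B and plasma cells (6 markers) at 26.4 to 114 TPM in WT and 12.6 to 30.9 TPM in MUT. Endothelial (6 markers) and peritubular myoid markers (5 markers) gave 27.9 to 35.3 and 8.76 to 11.8 TPM in WT against 28.3 to 33.4 and 9.78 to 15.7 TPM in MUT, and Leydig cell markers (6 markers) reached 97.6 TPM in MUT replicate 3 against 15.1 to 29.0 TPM in the other 5 libraries. The part of these cells in the Smad levels was not tested. In bulk RNA, fewer cells of a type and less RNA per cell cannot be told apart. *Hras* itself had 1300, 1407 and 1542 counts in WT and 1600, 1594 and 1426 counts in MUT, and gene counts do not separate its alleles.

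*Smad6*, *Smad7* and *Smad9* are themselves known targets of the pathway, and RefSeq start-site windows (GRCm38.p6, 250 bases before to 50 bases after each start) were available for 5 of the 8 genes. The 2 letter patterns searched are bound by Smad proteins in vitro, and each is its own reverse complement, so that a match reads the same on both strands. GTCTAGAC, the palindromic Smad-binding element, was found in the *Smad6* window, spanning its start. It occurred in 70 of 32851 windows (0.213%), and of 80 listed pathway genes in the table, in that of *Runx3* alone. GGCGCC, the core of the GC-rich BMP response element, was found for *Smad9* and *Smad5*, in 3898 of all windows (11.9%) and for 23 of the 80 pathway genes. A gene can have several windows and is counted if any of them matches, so shares of genes and of windows are not comparable. The windows of *Smad6* and *Smad9* are shown because each holds a pattern and because these genes had the lowest and the highest MUT to WT ratio of the family. Each runs 5′ to 3′ on the gene's strand, from 250 bases before to 10 bases after the start, with the pattern in capitals.
Smad6 (chr9:64022050-64022309, minus strand): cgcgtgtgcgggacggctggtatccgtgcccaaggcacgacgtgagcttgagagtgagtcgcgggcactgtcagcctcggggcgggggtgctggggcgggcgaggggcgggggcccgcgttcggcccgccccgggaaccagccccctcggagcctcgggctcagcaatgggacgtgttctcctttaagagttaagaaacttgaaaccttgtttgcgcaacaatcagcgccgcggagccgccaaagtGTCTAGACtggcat
Smad9 (chr3:54755332-54755591, plus strand): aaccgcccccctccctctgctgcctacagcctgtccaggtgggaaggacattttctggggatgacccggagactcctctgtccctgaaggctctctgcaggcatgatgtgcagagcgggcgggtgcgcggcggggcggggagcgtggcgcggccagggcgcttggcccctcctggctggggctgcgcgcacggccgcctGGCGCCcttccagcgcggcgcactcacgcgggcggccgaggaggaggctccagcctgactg
A match describes letters in the window and is not evidence of binding in these cells.

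The genes lie on 5 chromosomes. On GRCm38, *Smad6* (chr9:63953076-64022059) and *Smad3* (chr9:63646767-63757994) are on the minus strand of the same chromosome, while *Smad1* (chr8:79338395-79399518) is on the minus strand and *Smad5* (chr13:56703010-56742377) and *Smad9* (chr3:54755582-54801257) are on the plus strand of theirs. *Smad2*, *Smad4* and *Smad7* are on chromosome 18. Their summed exon lengths ran from 3205 bases for *Smad6* to 7420 bases for *Smad5*. Only *Smad5* shared exon bases with another gene (*Gm27301*, 100 bases or 1.35% of its exons), so the counts of the other 7 rest on exons of their own.

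The levels of the 8 genes spanned a wide range, and the TGF-beta and activin Smads were the most abundant class. Over the 6 libraries, mean TPM was 163 for *Smad2*, 96.8 for *Smad4*, 44.4 for *Smad3*, 36.9 for *Smad5*, 27.48 for *Smad1*, 27.45 for *Smad7*, 24.5 for *Smad6* and 2.38 for *Smad9*. *Smad2* was thus 1.68 times *Smad4*, and *Smad4* was 2.18 times *Smad3*. *Smad6*, next to last, was 10.3 times *Smad9*. Among the 19656 genes that passed the count filter, *Smad2* ranked 1155th and *Smad9* 15963rd by TPM. The order was firm at its ends, with the libraries' ranges fully apart for *Smad2* over *Smad4*, *Smad4* over *Smad3*, *Smad5* over *Smad1* and *Smad6* over *Smad9*. Neighbours in the middle overlapped. *Smad3* exceeded *Smad5* in 6 of 6 libraries although their ranges overlapped, *Smad7* exceeded *Smad6* in 4 of 6, and *Smad1* exceeded *Smad7* in 2 of 6.

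**Figure D1:**
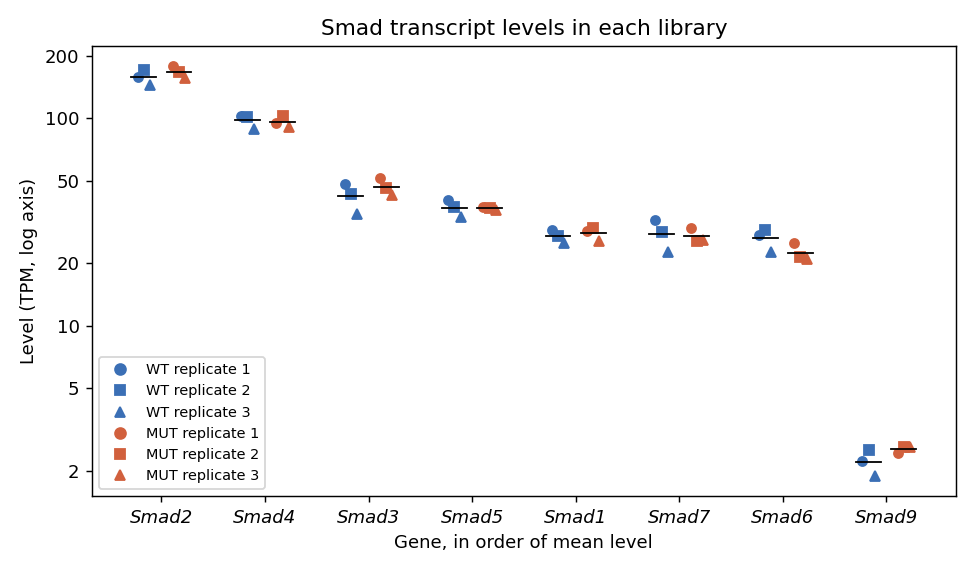
Level of each Smad gene in TPM on a log axis, with 1 point per library (3 WT, 3 MUT) and a horizontal bar at each group mean. *Smad2* is highest at a mean of 163 TPM, 5 genes lie between 24.5 and 44.4 TPM, and *Smad9* is far below them at 2.38 TPM.

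None of the 8 genes differed between MUT and WT by edgeR's quasi-likelihood test, at a Benjamini-Hochberg adjusted p under 0.1 over the 19656 genes tested (adjusted p = 0.998 for each), a threshold that 0.0102% of all genes passed. None had an unadjusted p under 0.05 either, against 2.78% of all genes, and for none did the CPM of the 3 MUT libraries lie entirely above or below those of the 3 WT libraries, against 7.69% of all genes (4.69% above and 3.00% below). DESeq2 and edgeR with the replicate number as a block likewise gave 0 of 8 at either threshold. With the block in edgeR, 0.0661% of all genes passed adjusted and 6.60% unadjusted. DESeq2 was run without the count filter, and of its 37271 genes 0.0241% passed adjusted and 1.18% unadjusted. Within the 3 same-numbered WT and MUT pairs, 2 of 8 Smad genes (*Smad3* and *Smad9*) were higher in MUT every time, against 14.1% of all genes, and 1 of 8 (*Smad6*) was lower every time, against 13.0%. The size of the Smad differences was ordinary for well-expressed genes, with a median absolute log2 fold change of 0.0613 against 0.0956 over all tested genes and 0.0610 over the 10583 tested genes above 10 CPM. The differences below are MUT minus WT on the log2 scale, and CPM values are normalized by TMM (trimmed mean of M-values).

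**Figure D2:**
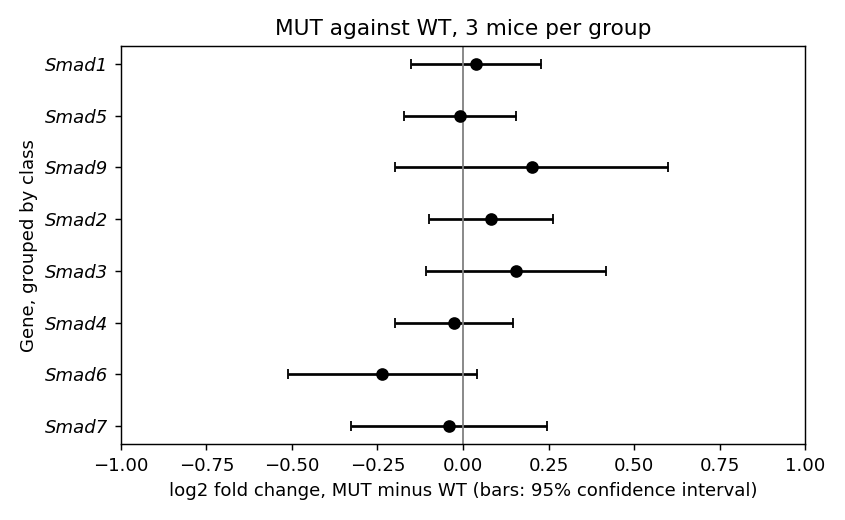
MUT against WT log2 fold change of the 8 Smad genes by edgeR, with 95% confidence intervals, and a line at 0. Every interval includes 0, from *Smad6* at -0.24 to *Smad9* at 0.20.

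The inhibitory Smads gave the lowest estimate of the family. *Smad6*, which preferentially inhibits BMP type I receptor signalling, measured 23.2, 24.7 and 20.1 CPM in WT replicates 1 to 3 and 21.6, 18.2 and 17.9 CPM in the MUT replicates, with means of 22.7 ± 2.35 and 19.2 ± 2.08 CPM (SD, n = 3 each). MUT replicates 2 and 3 were the lowest of the 6 libraries, but MUT replicate 1 lay above WT replicate 3, so the groups overlapped, although MUT was the lower library in 3 of 3 same-numbered pairs. The log2 fold change was -0.24 (SE 0.12, 95% interval -0.51 to 0.04), which spans a MUT level of 0.701 to 1.03 times that of WT, and edgeR's unadjusted p was 0.0849 (0.0517 with the replicate block). The estimate was -0.32 without WT replicate 3 (edgeR unadjusted p = 0.0270, adjusted p = 0.999) and -0.34 without MUT replicate 1 (unadjusted p = 0.0338). These are the lowest WT and the highest MUT library, and neither setting brought *Smad6* past the adjusted threshold. With any other library left out, the estimate was -0.23 to -0.18 (edgeR unadjusted p = 0.152 to 0.223). DESeq2 on all libraries gave an unadjusted p of 0.113. *Smad7*, which inhibits TGF-beta as well as BMP receptors and recruits ubiquitin ligases to them, measured 38.8, 33.9 and 28.2 CPM in WT and 36.0, 30.8 and 31.2 CPM in MUT. Its WT libraries enclosed all 3 MUT libraries, and the log2 fold change was -0.04 (SE 0.13, interval -0.33 to 0.24).

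The receptor-regulated Smads of the TGF-beta and activin branch had small positive estimates. *Smad3*, which binds DNA directly, measured 70.4, 63.5 and 52.8 CPM in WT and 76.6, 68.1 and 63.1 CPM in MUT. WT replicate 3 was by far the lowest library and MUT replicate 1 the highest, and the other 4 libraries were interleaved. Within same-numbered pairs MUT was the higher library in 3 of 3. The log2 fold change was 0.15 (SE 0.12, interval -0.11 to 0.42; unadjusted p = 0.215, or 0.0662 with the replicate block), and it was 0.05 without WT replicate 3. *Smad2*, whose main form does not bind DNA by itself, measured 148.2, 160.3 and 141 CPM in WT and 169.9, 158 and 148.2 CPM in MUT. The groups overlapped, and the log2 fold change was 0.08 (SE 0.079, interval -0.099 to 0.26).

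The BMP branch was close to level between the groups, apart from its rarest member. *Smad5* measured 78.9, 73.0 and 68.4 CPM in WT and 74.2, 73.3 and 71.6 CPM in MUT, all 3 MUT libraries lying inside the WT range. Its log2 fold change was -0.0086 (SE 0.072, interval -0.17 to 0.15). *Smad1*, with which it shares most of its functions, measured 48.0, 44.9 and 43.3 CPM in WT and 47.9, 49.4 and 42.5 CPM in MUT. Both the highest and the lowest library were MUT, and the log2 fold change was 0.04 (SE 0.084, interval -0.15 to 0.23). *Smad9*, which encodes Smad8, a weaker activator of BMP targets, had only 72, 84 and 66 counts in WT and 80, 86 and 87 counts in MUT, or 3.18 ± 0.401 and 3.65 ± 0.132 CPM (SD, n = 3 each). WT replicate 2 lay above MUT replicate 1, while each MUT library exceeded the WT library of its own number. The log2 fold change was 0.20 (SE 0.17, interval -0.20 to 0.60), the widest interval of the family, so that a MUT level between 0.872 and 1.51 times that of WT lay within it.

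*Smad4*, the common partner of both branches, measured 100.9, 99.7 and 90.4 CPM in WT and 94.6, 101.4 and 89.4 CPM in MUT. Its highest and lowest libraries were both MUT, and the log2 fold change was -0.03 (SE 0.076, interval -0.20 to 0.15).

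Much of the spread among libraries ran through the whole family. WT replicate 3 was below the mean of the 6 libraries for 8 of 8 Smad genes, with a median deviation of -0.11 on the log2 scale, and was the lowest of all libraries for 5 of them. MUT replicate 3 was below the mean for 7 of 8 (median -0.067) and lowest for the other 3. The largest deviations were those of *Smad3* (-0.31) and *Smad9* (-0.28), both in WT replicate 3, followed by *Smad6* in WT replicate 2 (0.24). WT replicate 3 also differed by transcript length across genes above 10 CPM. Its median log2 deviation was 0.15 over 1235 genes with under 2 kb of exons and -0.13 over 3575 genes with over 6 kb, whereas the other libraries stayed between -0.081 and 0.05 in every length class. Its marker sums for macrophages, spermatocytes and spermatids, Sertoli cells, and B and plasma cells were the highest of the 6. Its sums for undifferentiated spermatogonia (2722 TPM) and endothelial cells (27.9 TPM) were the lowest. The part of transcript length or other cells in the Smad values of that library was not tested.

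**Figure D3:**
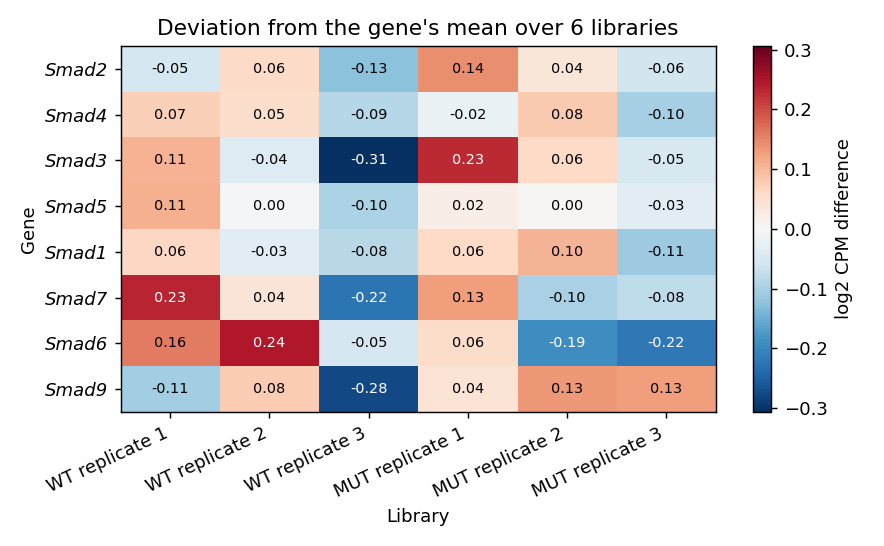
Deviation of each Smad gene (rows) in each library (columns) from its mean over the 6 libraries, in log2 CPM, coloured from low to high. The column of WT replicate 3 is negative for 8 of 8 genes, reaching -0.31 for *Smad3*.

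Relative to one another, the classes kept similar shares of the summed Smad TPM, which was 441, 439 and 374 in WT and 447, 432 and 402 in MUT. *Smad2* and *Smad3* together made up 46.8, 48.7 and 48.0% in WT and 51.3, 49.4 and 49.7% in MUT. All 3 MUT libraries were above all 3 WT libraries in this share. The BMP-branch Smads made up 16.2, 15.2 and 16.2% in WT and 15.2, 16.0 and 16.0% in MUT, and *Smad4* 23.4, 23.1 and 23.7% in WT and 21.2, 23.7 and 22.5% in MUT, with overlapping groups in both. The inhibitory Smads made up 13.6, 13.1 and 12.2% in WT and 12.2, 10.9 and 11.7% in MUT, where WT replicate 3 lay just below MUT replicate 1.

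The ratio of inhibitory to receptor-regulated Smads (summed TPM) was 0.216, 0.204 and 0.190 in WT and 0.184, 0.166 and 0.178 in MUT, or 0.203 ± 0.0131 and 0.176 ± 0.00909 (SD, n = 3 each). Every MUT library was below every WT library. This ratio and the class shares are given as descriptions without a test, and neither was compared with ratios of other genes. The ratio of TGF-beta to BMP receptor-regulated Smads was 2.88, 3.20 and 2.96 in WT and 3.37, 3.08 and 3.10 in MUT, with overlap. Between partners within a class, *Smad2* was 3.29 to 4.17 times *Smad3*, *Smad5* was 1.25 to 1.42 times *Smad1*, and *Smad7* was 0.974 to 1.24 times *Smad6*.

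**Figure D4:**
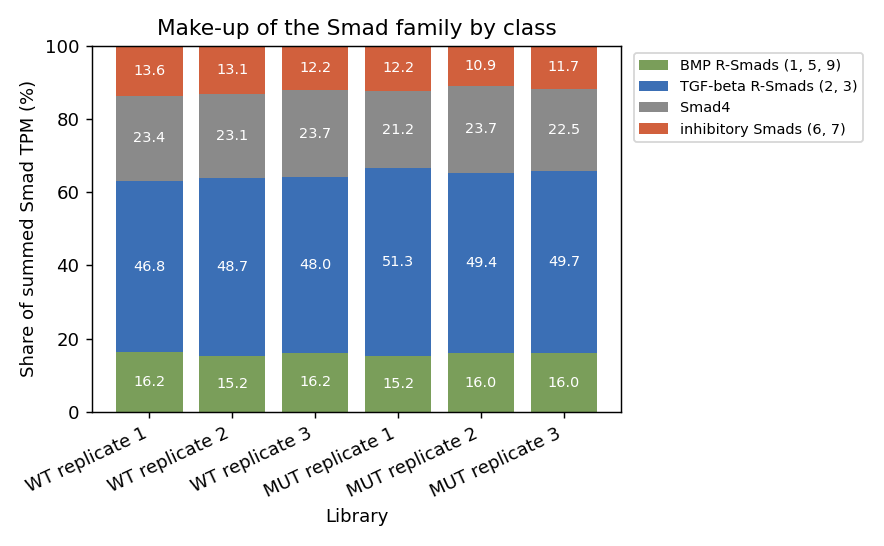
Share of the summed Smad TPM held by each class in each library, in percent. The share of *Smad2* and *Smad3* is 46.8 to 48.7% in WT and 49.4 to 51.3% in MUT, and the inhibitory share is 12.2 to 13.6% in WT and 10.9 to 12.2% in MUT.

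The genes around the Smads were examined in 5 lists. Of 117 listed pathway genes, 99 passed the count filter, and 0 passed the adjusted threshold by edgeR's quasi-likelihood test (0.0102% of all genes). At an unadjusted p under 0.05, 6 of the 99 were past the threshold, 4 higher (1.34% of all genes) and 2 lower (1.44% of all genes) in MUT, and the count was 1 without MUT replicate 2. In CPM, 7 of the 99 had each MUT library above each WT library (4.69% of all genes) and 2 had each below (3.00%). Ligands held 3 of those above and 1 of those below. Each other list held 1 above, and the partners and regulators also held 1 below. *Bmp10* and *Mstn* had 0 counts in every library, which allows up to 0.131 CPM.

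Among ligands, 17 of 30 were tested. At unadjusted p under 0.05 by edgeR, 3 were higher (1.34% of all genes) and 1 lower (1.44%). The median log2 fold change of the 17 was 0.13 against 0.0066 over all genes. The ligands with the highest levels were *Bmp7*, at 51.8 TPM, and *Inha*, the inhibin alpha subunit, at 18.9 TPM. The part of other cells in the levels of these and the following ligands was not tested. *Bmp4*, a BMP that acts on spermatogonia, had 95, 79 and 62 counts in WT and 56, 52 and 46 counts in MUT, with every MUT library below every WT library. Its log2 fold change was -0.60 (SE 0.22, unadjusted p = 0.0255). *Gdf11*, an activin-like ligand of the Smad2 and Smad3 branch, had 94, 107 and 113 counts in WT and 142, 164 and 132 counts in MUT. *Tgfb3*, a TGF-beta, had 37, 40 and 46 counts in WT and 48, 64 and 76 counts in MUT, and *Gdf10* had 218, 211 and 198 counts in WT and 269, 251 and 244 counts in MUT. These 3 of the 17 tested ligands had each MUT library above each WT library in CPM (4.69% of all genes) and *Bmp4* was the 1 with each below (3.00%). The 3 had log2 fold changes of 0.49 (SE 0.16), 0.62 (SE 0.23) and 0.30 (SE 0.13) and unadjusted p of 0.0144, 0.0236 and 0.0432. Each of these 4 ligands had an adjusted p of 0.998. With the replicate block, edgeR kept all 4 at an unadjusted p under 0.05, whereas DESeq2 gave 0.0932 for *Bmp4*, 0.0598 for *Gdf11*, 0.118 for *Tgfb3* and 0.129 for *Gdf10*.

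Among receptors, 16 of 18 were tested and 1 was lower at unadjusted p under 0.05 (1.44% of all genes), with a median log2 fold change of -0.0010. *Bmpr1a*, a BMP type I receptor, was at 77.0 TPM, and *Acvr2b*, an activin type II receptor, at 63.6 TPM. *Tgfbr2*, the type II receptor of TGF-beta, had 968, 844 and 1011 counts in WT and 713, 756 and 852 counts in MUT, where MUT replicate 3 slightly exceeded WT replicate 2. Its log2 fold change was -0.27 (SE 0.098, unadjusted p = 0.0236, adjusted p = 0.998). *Tgfbr2* is also expressed by macrophages, whose marker sums are given above, and their part in this value was not tested.

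Among extracellular antagonists, 13 of 16 were tested, with a median log2 fold change of 0.09. At unadjusted p under 0.05, 1 was higher (1.34% of all genes) and 0 lower (1.44%). *Twsg1* and *Fst*, which bind BMPs and activins respectively, led this list at 62.3 and 44.6 TPM. *Ltbp1*, which anchors latent TGF-beta in the matrix, had a log2 fold change of 0.29 (unadjusted p = 0.0270) with overlapping groups.

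Inside the cell, none of 31 Smad partners and regulators and none of 22 transcriptional targets had an unadjusted p under 0.05 (2.78% of all genes). Their median log2 fold changes were 0.02 and -0.04. Among partners, *Ski*, a corepressor of Smads, had the highest level at 301 TPM, followed by *Ube2o*, which modifies Smad6, at 287 TPM. The targets with the highest levels were *Junb*, at 386 TPM, and *Atoh8*, a BMP target, at 159 TPM.

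**Figure D5:**
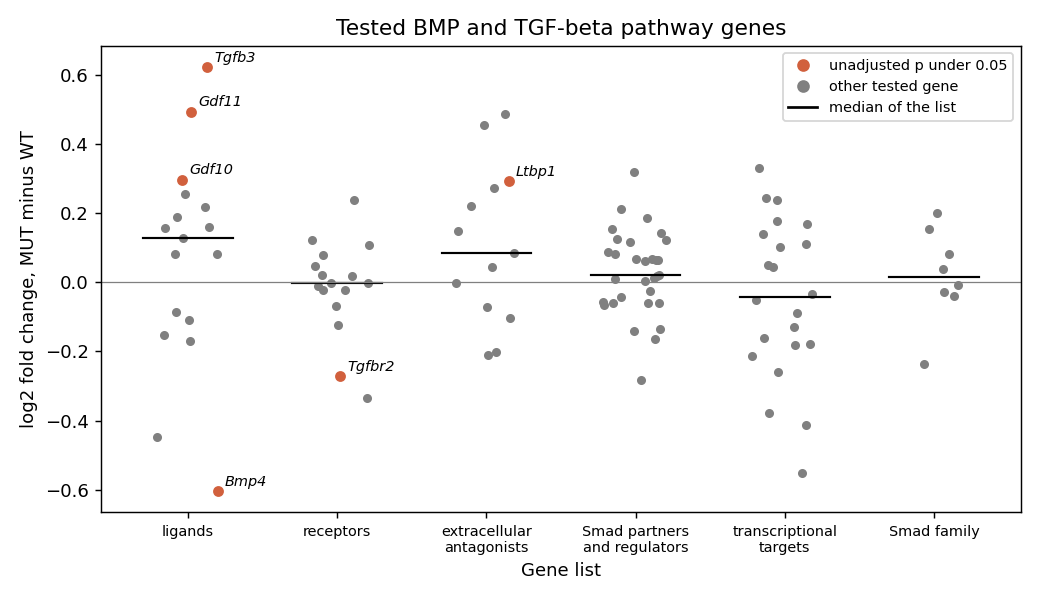
MUT against WT log2 fold change by edgeR of the tested genes of each pathway list and of the Smad family, with 1 point per gene. The Smad genes lie between -0.24 and 0.20, while the ligands reach from -0.60 for *Bmp4* to 0.62 for *Tgfb3*.

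The genes whose levels followed those of *Smad2* and *Smad6* most closely were ranked by Pearson's r of log2 CPM over the 6 libraries among 10576 genes above 10 CPM, as a description only. For *Smad2* they were *Sfswap*, a splicing regulator (0.989), *Smyd2*, a lysine methyltransferase (0.986), and *Utp4*, a ribosome assembly factor (0.986), out of 198 genes with r above 0.9. For *Smad6* they were *Tubg2*, a gamma-tubulin (0.999), *Atl2*, an endoplasmic reticulum GTPase (0.996), and *Mcam* (0.981), out of 65 genes above 0.9. *Mcam* encodes the surface protein used for the sort, and measured 668, 707 and 593 CPM in WT and 662, 567 and 559 CPM in MUT. Its highest library, WT replicate 2, and its lowest, MUT replicate 3, were also those of *Smad6*. The points share libraries, depth and any difference in the sort, whose part was not tested.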

How the data were processed

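RNA of 3 WT and 3 MUT sorted samples was sequenced paired-end from stranded poly(A) libraries. The authors deposited raw fragment counts per gene, 1 file a sample, from featureCounts 1.6.2 with GENCODE M17 (GRCm38.p6) and an added tdTomato entry. The submitters' processing notes also name STAR and FastQC. The file headers show paired fragments summed by gene name without a strand setting, so antisense overlaps cannot be separated. Genes were filtered with filterByExpr, normalized by TMM and tested with edgeR 4.0.16 (quasi-likelihood, Benjamini-Hochberg, threshold 0.1) in R 4.3.3, on all 6 samples. DESeq2 1.42.0 (the study's tool), limma 3.58.1 (voom), other filters and scaling, and each library left out were alternatives. TPM used the exon lengths in the files. Depth was 22729292 to 23550433 counts per library, and floors of 3 counts cover counting error only.

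Replicate numbers come from the labels, and the controls were littermates, but no label says that equal numbers mark littermates. Same-numbered WT and MUT libraries deviated together, with correlations of 0.30, 0.16 and 0.40 over 10583 genes above 10 CPM, each above the limit of 0.1 used to take numbers as pairs, and were fitted as a block in an alternative. WT replicate 2 correlated more with MUT replicate 1 (0.33) than with MUT replicate 2, so the pairing is not clear for every library. Members and gene lists were chosen with earlier results of these data known. Genes named are the 8 Smads, for each pathway list the 2 with the highest TPM and those with an unadjusted p under 0.05, and the 3 genes most like the member with the highest TPM (*Smad2*) and that with the smallest unadjusted p (*Smad6*). A pathway gene is not reported here and was left out of its list. Sequences came from RefSeq windows for GRCm38.p6.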

Additional observations from a re-analysis of the deposited data

How the results depend on the processing

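No Smad gene passed the adjusted threshold under any alternative run, and over 24 genes and 13 settings 295 of 312 log2 fold changes kept their direction, 17 reversed and 0 crossed the threshold. With the replicate block in edgeR, 0 of 8 Smad genes had an adjusted p under 0.1 or an unadjusted p under 0.05. In that fit 8 of the 99 tested pathway genes had an unadjusted p under 0.05, against 6.60% of all genes. Adjusted calls over all genes went from 2 to 13. DESeq2 gave 5 pathway genes at an unadjusted p under 0.05 without the block (1.18% of all its genes) and 3 with it. The DESeq2 fit with the block was added after seeing the data, and there only *Tgfbr2* and *Ltbp1* of the 6 named genes were under 0.05. Shares over all genes were not computed for that fit or for the fits with a library left out. Leaving out each library in turn gave 0 to 1 Smad genes (*Smad6*, without WT replicate 3 or without MUT replicate 1) and 1 to 8 pathway genes at unadjusted p under 0.05. The log2 fold change then ranged from -0.019 to 0.10 for *Smad1*, -0.058 to 0.038 for *Smad5*, -0.089 to 0.017 for *Smad4*, -0.15 to 0.065 for *Smad7*, -0.44 to 0.16 for *Inha*, -0.068 to 0.036 for *Bmpr1a*, -0.048 to 0.10 for *Twsg1*, -0.078 to 0.10 for *Ski* and -0.0094 to 0.18 for *Ube2o*, each turning sign. *Bmpr1a* also turned sign with no filter on low counts (0.0019) and in DESeq2 with the replicate block (0.00021). *Smad3*, the largest positive estimate beside *Smad9*, ranged from 0.05 to 0.24 and *Smad6* from -0.34 to -0.18. The order of levels kept 6 of 8 places in CPM without length, where *Smad5* was above *Smad3*, and without WT replicate 3 or MUT replicate 2, where *Smad7* was above *Smad1*. At 66 to 87 counts, *Smad9* had the widest interval of the family. The cause of these shifts was not tested.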
